A study of Mus musculus with 12 samples.

Results

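The effect of C16 on kidney transcripts of Tg26 mice was measured by comparing 3 C16-treated Tg26 mice with 3 control Tg26 mice, chosen by the genotype and treatment given for each library. These are 6 of the 12 bulk RNA-seq libraries of the series. The other 6 libraries came from control and C16-treated wild-type (WT) mice and entered the same model. RNA came from the outer cortex of the kidney, was poly(A)-selected and was sequenced as stranded paired reads. All mice had the FVB/N background. Tg26 mice were hemizygous for an HIV-1 provirus that lacks part of the viral genome and is read from its own long terminal repeat, so the transgene is not tied to 1 kidney cell type. C16-treated mice received 10 µg/kg by intraperitoneal injection 3 times a week between the ages of 6 and 12 weeks, in 0.5% DMSO in PBS at 10 ml/kg. Whether the control mice received this vehicle is not given in the sources used here, so C16 and its vehicle cannot be told apart. Kidneys were collected at 12 weeks of age. The study as a whole used both sexes and matched its treatment groups for sex, which is not given for each library. Y-linked transcripts were detected in all 12 libraries, and Xist did not pass the filter on low counts, the pattern of male mice. Transcripts of the HIV-1 provirus were not analysed here.

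C16 inhibits protein kinase R (PKR), which the gene Eif2ak2 encodes. PKR binds double-stranded RNA, phosphorylates the translation factor eIF2 alpha and thereby slows protein synthesis, and it also feeds into NF-kB and interferon signaling. The double-stranded stems of HIV-1 RNA can activate it. In HIV-associated nephropathy podocytes lose their mature form, glomeruli scar, tubules dilate, and leukocytes and matrix fill the interstitium. Injured proximal tubule cells lose transporters and gain genes such as Sox9, Krt19 and Vim.

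Libraries held 19877877 to 27000388 gene counts, and those of Tg26 mice 23931088 to 27000388. Levels are given as CPM, counts relative to library size after TMM scaling (trimmed mean of M values). TMM factors ran from 0.901 to 1.22. The highest factor belonged to control Tg26 replicate 1, whose Spearman correlations with the other libraries ran from 0.934 to 0.979. All 32 proximal tubule markers and all 20 podocyte markers passed the filter on low counts. Summed proximal tubule markers were at 35688 CPM in control Tg26 replicate 1, at 65944 and 66004 CPM in the other 2 control Tg26 mice and at 71018 to 84020 CPM in C16-treated Tg26 mice. Counts and medians of gene lists that rest on control Tg26 replicate 1 are therefore given with and without it.

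C16-treated Tg26 mice had lower levels of injury, matrix, macrophage and complement genes than control Tg26 mice, and a smaller set of genes was higher. Of 16094 genes tested with edgeR's quasi-likelihood test, 550 (3.42%) were called at an adjusted p under 0.05. Of these, 428 were lower (2.66% of genes tested) and 122 were higher (0.758%) with C16. Among the lower genes 246 changed by 2-fold or more and 25 by 4-fold or more, against 25 and 6 of the higher genes. The median log2 fold change was -1.05 over the lower genes, 0.64 over the higher genes and -0.0069 over all genes tested. In each of the 550 genes the levels of the 2 groups did not overlap, which held for 4434 of all genes tested (27.6%).

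The calls lay close to the threshold, with adjusted p from edgeR between 0.0270 and 0.04995, and the first gene outside it had 0.05001. The number of calls rested on single mice. Without control Tg26 replicate 1 there were 10 calls, without C16-treated Tg26 replicate 1 or replicate 2 there were 0, and without C16-treated Tg26 replicate 3 there were 100. Without control Tg26 replicate 2 there were 1469 calls and without control Tg26 replicate 3 there were 1010. Leaving out a WT library changes only the shared estimate of the spread, the TMM scaling and the genes tested. It gave 499, 67 and 343 calls for control WT replicates 1, 2 and 3, and 110, 100 and 251 calls for C16-treated WT replicates 1, 2 and 3. A fit of the 6 Tg26 libraries alone called 0 genes, 3222 genes having an unadjusted p under 0.05, against 4126 (25.6%) in the fit of all libraries. DESeq2 called 1235 genes lower and 724 higher. Scaling by library sizes alone moved the median of all genes to -0.14 and gave 739 lower and 81 higher calls.

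**Figure D1:**
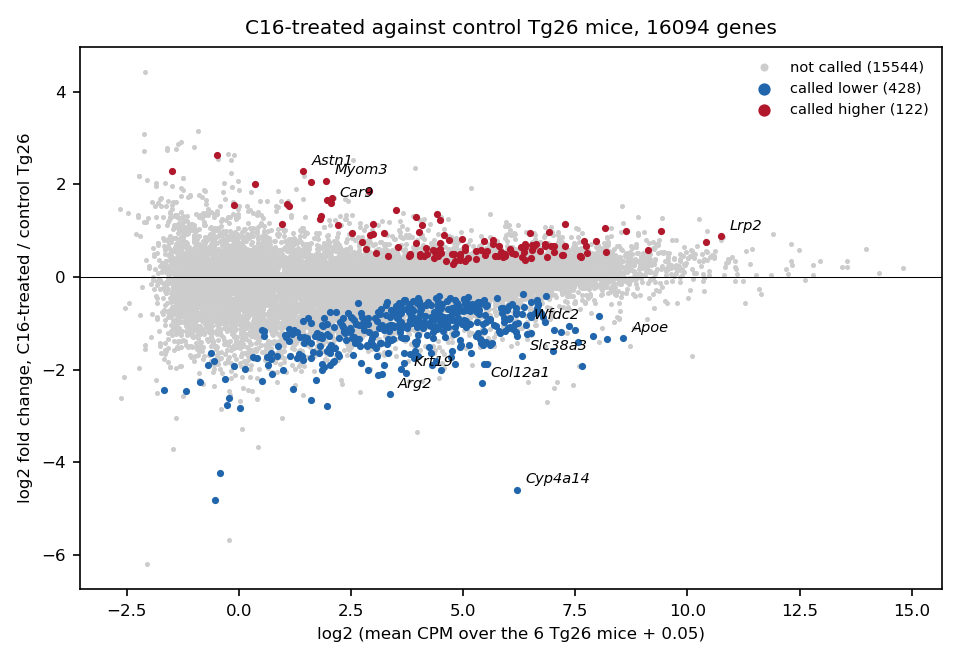
Each point is 1 of 16094 genes: the x axis gives log2 of the mean CPM over the 6 Tg26 mice (plus 0.05), and the y axis the log2 fold change of C16-treated over control Tg26 mice. Blue points are the 428 genes called lower, which spread from low to high levels, and red points the 122 called higher, most of which changed by less than 2-fold.

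The 10 genes still called without control Tg26 replicate 1 were Wfdc2, Ccdc80, Ehd2, Gsn, Cavin1, Hip1, Flvcr1 and Bcam, which were lower, and Slc25a21 and Gm10804, which were higher. Without that mouse the median of the 428 genes was -0.83 and that of the 122 genes 0.51. Wfdc2, which encodes an epithelial protease inhibitor (HE4) linked to kidney fibrosis, had the smallest adjusted p of all genes. Its level was 136, 100 and 102 CPM in control Tg26 mice and 51.5, 55.2 and 58.2 CPM in C16-treated Tg26 mice. All 3 treated mice lay close to the 3 WT mice, at 44.2, 49.9 and 49.6 CPM. The log2 fold change was -1.04 (standard error, SE, 0.13, adjusted p = 0.0270 from edgeR), and -0.88 without control Tg26 replicate 1 (adjusted p = 0.0370 from edgeR). Slc25a21, a mitochondrial carrier of 2-oxodicarboxylates in lysine breakdown, was at 6.10, 10.9 and 9.68 CPM in control and at 21.3, 20.03 and 23.9 CPM in C16-treated Tg26 mice. The groups lay far apart relative to their spread, a log2 fold change of 1.29 (SE 0.18, adjusted p = 0.0278 from edgeR). In WT mice Slc25a21 was at 21.5, 17.4 and 18.5 CPM.

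In WT mice, whose libraries are not shared with this comparison, C16 led to 0 calls by edgeR (0% of genes tested), with 1199 genes (7.45%) at an unadjusted p under 0.05, and to 34 calls by DESeq2. The 428 genes lower with C16 in Tg26 mice had a median log2 fold change of -0.06 with C16 in WT mice, 59.8% of them being negative there against 50.9% of all genes. The 122 higher genes had a median of 0.15 with C16 in WT mice, and 78.7% were positive. The difference between the effects of C16 in the 2 genotypes, tested as an interaction term, was called for 0 genes by edgeR (0%), with 2047 genes (12.7%) at an unadjusted p under 0.05, and for 158 by DESeq2. Control Tg26 mice also serve as the diseased group in the comparison with WT mice, so the following values are set side by side only. The 428 genes had a median log2 fold change of 1.42 in control Tg26 against WT mice and 0.39 in C16-treated Tg26 against WT mice. For the 122 genes the corresponding medians were -0.51 and 0.08.

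Per mouse, the mean log2 level of the 428 genes relative to all libraries was 1.48, 0.91 and 0.88 in control Tg26 mice and -0.21, -0.0044 and 0.14 in C16-treated Tg26 mice. Control Tg26 replicate 1 was the highest. WT mice ranged from -0.59 to -0.38 and C16-treated WT mice from -0.68 to -0.51, so all 3 C16-treated Tg26 mice stood above both WT groups. These scores describe the genes that were called and support nothing further.

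**Figure D2:**
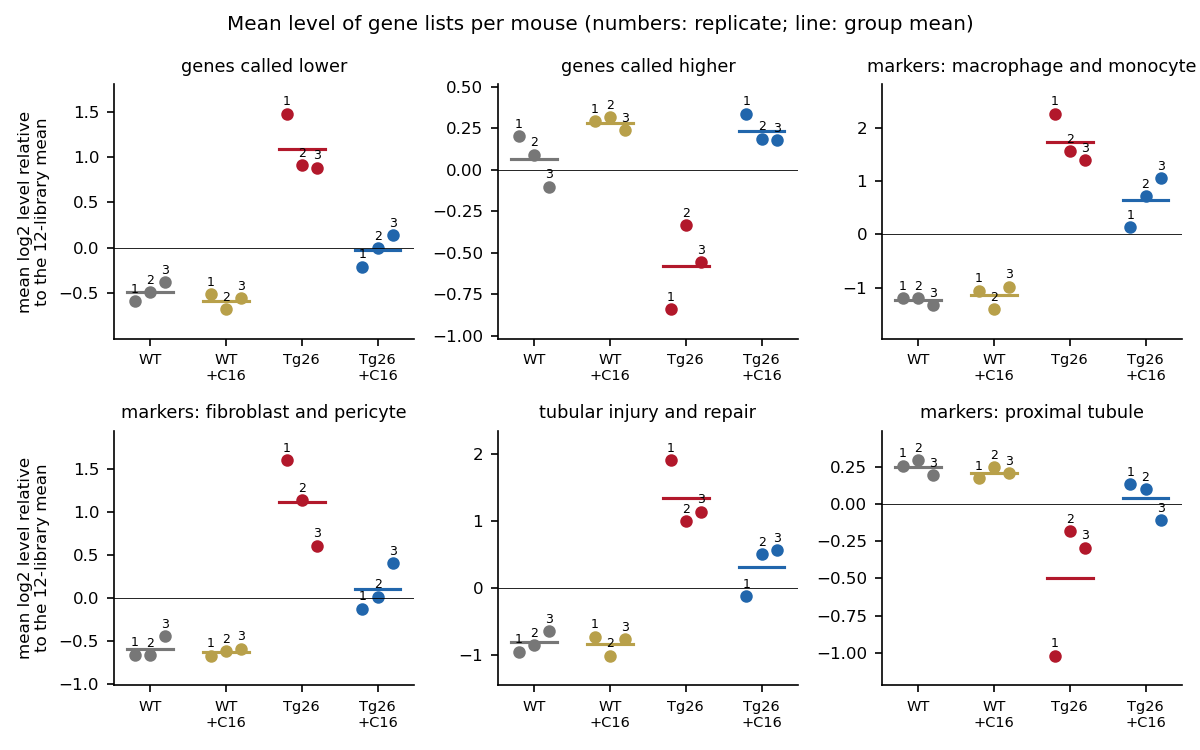
Each point is 1 mouse: the y axis gives the mean log2 level of a gene list relative to the mean over 12 libraries, for WT, C16-treated WT, control Tg26 and C16-treated Tg26 mice, with the group mean as a line and the replicate number beside each point. For the 428 lower genes C16-treated Tg26 mice run from -0.21 to 0.14, between the WT groups and the control Tg26 mice, and control Tg26 replicate 1 is the most extreme mouse in all 6 panels.

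The largest decreases were in genes of several kinds. Cyp4a14, a fatty acid omega-hydroxylase and target of PPAR-alpha (chromosome 4, 115486200 to 115496142 of mm10), was at 136, 49.0 and 236 CPM in control and at 2.24, 8.03 and 7.15 CPM in C16-treated Tg26 mice. The 3 treated mice were also below the WT mice, which varied from 9.20 to 177 CPM. Its log2 fold change was -4.59 (SE 1.14, adjusted p = 0.0498 from edgeR), and with C16 in WT mice it was -2.80 (unadjusted p = 0.021 from edgeR). The neighbouring Cyp4a10, a close paralog, was at 246, 287 and 606 CPM in control and at 131, 120 and 182 CPM in treated Tg26 mice, and was not called (-1.39, adjusted p = 0.0854). Whether reads were split between these related genes was not checked, so the value of each is uncertain.

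Arg2, the mitochondrial arginase, was at 23.7, 8.77 and 20.1 CPM in control Tg26 mice and at 2.28, 2.61 and 4.15 CPM in C16-treated Tg26 mice. Its log2 fold change was -2.53 (SE 0.44, adjusted p = 0.0302 from edgeR). The treated mice were within or below the WT range of 3.89 to 6.16 CPM. Edn1 encodes endothelin-1, a vasoconstrictor peptide that also promotes kidney fibrosis. It was at 20.5, 7.53 and 7.36 CPM in control and at 1.99, 3.31 and 3.44 CPM in treated Tg26 mice, against 1.42 to 1.60 CPM in WT mice. The log2 fold change of Edn1 was -2.02 (adjusted p = 0.0320 from edgeR). Axin2, a feedback inhibitor and common target of Wnt signaling, was the most even of the largest decreases, with 3.19, 3.23 and 2.91 CPM in control and 0.610, 0.662 and 1.04 CPM in treated Tg26 mice. The treated mice lay on either side of the WT mice (0.718 to 0.867 CPM), and the log2 fold change was -2.003 (adjusted p = 0.0278 from edgeR).

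Uhrf1, which maintains DNA methylation at replication forks, was at 28.3, 9.28 and 6.44 CPM in control Tg26 mice and at 3.17, 3.39 and 3.74 CPM in treated mice, a log2 fold change of -2.10. Gabrp, the pi subunit of the GABA-A receptor, had no counts in the 3 WT mice, where the limit is 3 counts per library. It was at 7.10, 5.43 and 4.56 CPM in control and at 0.691, 1.53 and 2.0 CPM in C16-treated Tg26 mice (log2 fold change -2.01). It remained above the WT mice in each treated mouse. The other largest decreases were Lgi2 (-2.78), the axonal adhesion gene Nfasc (-2.41), the G protein regulator Rgs16 (-2.24), Iqgap3 of the cell division machinery (-2.23) and the fibronectin-domain gene Fndc1 (-2.10). All 5 were below 7 CPM on average in control Tg26 mice, and in each the highest mouse was control Tg26 replicate 1.

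The largest increases were in genes with modest levels, several of them of epithelial metabolism. Car9, carbonic anhydrase IX, a membrane enzyme known as a hypoxia target, was at 1.21, 2.61 and 2.28 CPM in control and at 6.18, 5.96 and 6.26 CPM in C16-treated Tg26 mice. The treated mice were alike, and the WT mice were at 3.28 to 7.73 CPM. Its log2 fold change was 1.59 (SE 0.31, adjusted p = 0.0356 from edgeR). Arhgef39, a guanine nucleotide exchange factor that lies close to Car9 on chromosome 4 (43496142 to 43499695 against 43506966 to 43513729 of mm10), was also higher, by 1.36 on the log2 scale. Srd5a2, the steroid 5-alpha reductase that makes dihydrotestosterone, was at 1.36, 4.71 and 3.53 CPM in control and at 15.7, 11.01 and 8.04 CPM in treated Tg26 mice, a log2 fold change of 1.86 (adjusted p = 0.0489 from edgeR). The WT mice, at 6.65 to 16.6 CPM, covered nearly the same range as the treated mice.

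Acmsd, which directs the kynurenine pathway away from NAD synthesis, was at 89.7, 128 and 69.6 CPM in control and at 210, 177 and 251 CPM in treated Tg26 mice, a log2 fold change of 1.15 (adjusted p = 0.0387 from edgeR). Hrg, a histidine-rich plasma glycoprotein made mainly in liver, was at 0.713, 2.54 and 2.36 CPM in control and at 8.33, 4.97 and 4.30 CPM in treated mice (log2 fold change 1.65). Myom3, a sarcomere M-band gene, was at 1.05, 2.37 and 0.920 CPM in control and at 6.91, 4.47 and 7.04 CPM in C16-treated Tg26 mice, above the 0.819 to 3.62 CPM of the WT mice. Its log2 fold change was 2.08 in Tg26 mice, and with C16 in WT mice it was 1.49 (unadjusted p = 0.0071 from edgeR). Astn1, known from neuronal migration, changed by 2.28 in Tg26 mice and by 1.302 in WT mice (unadjusted p = 0.018). The remaining genes of the 15 largest increases were the carboxylesterase Ces2h (2.05), Cntnap5a (1.70), Stxbp5l (1.57), Hmcn2 (1.45), the diacylglycerol kinase Dgkg (1.33), Erc2 (1.23) and Eddm3b (1.12). Ces2h belongs to a family of similar genes, among which reads may have been split.

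Promoter sequences are shown for a pair of the lower and a pair of the higher genes above, because each holds a short motif of a factor family tied to injury or growth. They are from RefSeq (GRCm38.p6), upstream of the gene start listed there and without bases inside the gene in the annotation of the files. Capitals mark the motif, GGAATG of TEAD factors or TGANTCA of AP-1 on either strand.
Edn1, chr13:42301226-42301475, plus strand: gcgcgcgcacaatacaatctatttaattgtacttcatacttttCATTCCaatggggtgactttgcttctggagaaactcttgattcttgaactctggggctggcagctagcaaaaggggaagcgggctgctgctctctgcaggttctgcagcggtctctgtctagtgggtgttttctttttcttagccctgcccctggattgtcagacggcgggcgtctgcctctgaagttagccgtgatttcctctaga
Uhrf1, chr17:56303087-56303320, plus strand: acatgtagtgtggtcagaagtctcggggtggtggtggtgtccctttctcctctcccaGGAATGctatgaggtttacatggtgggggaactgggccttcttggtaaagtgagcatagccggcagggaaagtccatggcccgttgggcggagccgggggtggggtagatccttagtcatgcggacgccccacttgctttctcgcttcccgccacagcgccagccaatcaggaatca
Car9, chr4:43506776-43506965, plus strand: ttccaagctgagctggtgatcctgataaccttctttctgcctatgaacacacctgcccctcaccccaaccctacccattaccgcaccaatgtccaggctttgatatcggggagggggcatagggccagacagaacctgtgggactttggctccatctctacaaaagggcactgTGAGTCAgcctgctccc
Hrg, chr16:22950822-22951071, plus strand: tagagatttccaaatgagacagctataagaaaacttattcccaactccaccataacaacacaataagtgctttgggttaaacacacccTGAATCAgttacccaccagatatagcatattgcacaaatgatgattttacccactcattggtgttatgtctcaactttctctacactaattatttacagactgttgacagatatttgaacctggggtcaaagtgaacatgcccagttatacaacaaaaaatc

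In windows of 250 bases before the start, GGAATG was present in 17.5% of 308 lower genes with a listed promoter, in 11.9% of 101 higher genes, in 10.8% of 11641 genes tested and in 12.6% of all 27025 RefSeq promoters. TGANTCA was present in 8.12% of lower, 6.93% of higher and 4.54% of tested genes, and in 6.85% of all promoters. The STAT motif TTCNNNGAA was in 4.87%, 4.95% and 6.12% of these sets and in 7.14% of all promoters, and CAAAGTCCA of HNF4 in 0.325%, 0.99%, 0.378% and 0.377%. Both strands were searched, no motif overlapped another in the printed windows, and the shares are descriptions without a test.

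**Figure D3:**
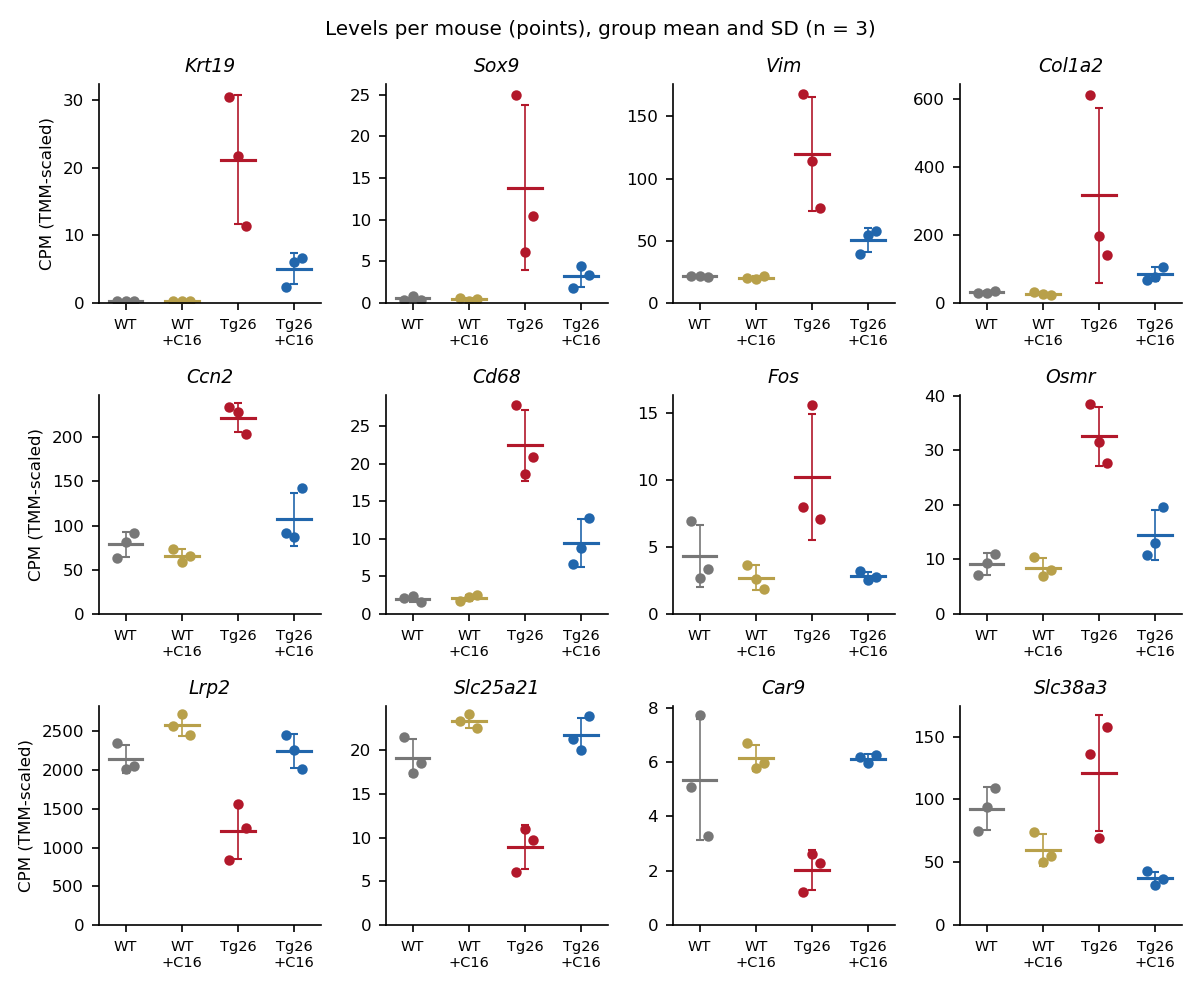
Each panel gives the TMM-scaled CPM of 1 gene, from 0 on a linear axis, in WT, C16-treated WT, control Tg26 and C16-treated Tg26 mice; points are mice, horizontal lines group means and bars 1 SD (n = 3). The 12 genes were picked from the 550 called genes, in each of which the 2 Tg26 groups do not overlap (27.6% of all genes tested). C16-treated Tg26 mice are lower for Krt19 (2.40 to 6.67 against 11.4 to 30.5 CPM) and higher for Lrp2 (2012 to 2456 against 835 to 1557 CPM).

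Genes of tubular injury and repair were lower in C16-treated Tg26 mice. Of 47 measured members 14 fell and 0 rose, the other 33 not passing the test, and the median log2 fold change was -1.12 (all genes tested, -0.0069). Over all genes tested 2.66% fell, the share against which the counts of this and the following lists stand. Counts of members with an unadjusted p under 0.05 from edgeR stand against 25.6% of all genes. Counts by DESeq2 stand against its 1235 lower and 724 higher calls among 16094 genes. Without control Tg26 replicate 1 the median of the injury list was -0.69 and 1 member, Wfdc2, was called. The summed level of the injury list was 3508 to 8198 CPM in control Tg26 mice, 1997 to 3023 CPM in C16-treated Tg26 mice and 1649 to 1982 CPM in WT mice. Krt19, a simple-epithelium keratin, was at 30.5, 21.7 and 11.4 CPM in control and at 2.40, 6.12 and 6.67 CPM in C16-treated Tg26 mice. The treated mice stayed well above the WT mice, at 0.241 to 0.295 CPM. The log2 fold change of Krt19 was -2.06 (SE 0.37, adjusted p = 0.0313 from edgeR). Sox9, a transcription factor of regenerating tubule cells, was at 24.98, 6.16 and 10.4 CPM in control and at 1.79, 4.39 and 3.41 CPM in treated mice (-2.12, adjusted p = 0.0410 from edgeR), again above WT mice at 0.385 to 0.844 CPM. Vim, the intermediate filament of mesenchymal and dedifferentiated cells, was at 168, 114 and 76.6 CPM in control and at 39.4, 54.9 and 57.8 CPM in treated mice (-1.24, adjusted p = 0.0320 from edgeR).

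The cortex transcripts of the classical urinary injury markers were not called. Havcr1, which encodes KIM-1, was at 118, 24.0 and 38.3 CPM in control and at 13.6, 31.2 and 26.9 CPM in C16-treated Tg26 mice, so the groups overlapped (-1.33, adjusted p = 0.120 from edgeR). Lcn2, which encodes NGAL, was at 142, 30.7 and 43.3 CPM against 5.89, 28.6 and 24.4 CPM (-1.87, adjusted p = 0.153 from edgeR). In both genes control Tg26 replicate 1 was far above the rest. The study measured NGAL as protein in urine and reported it lower with C16, which RNA of the cortex does not check. Of 15 keratin and desmosome genes, 3 fell and 0 rose (median -0.49, and -0.33 with 0 calls without control Tg26 replicate 1), namely Krt19, Krt7 (-0.77) and the desmosomal plaque gene Dsp (-0.73), while Krt18 was at -1.38 (adjusted p = 0.0530). The membrane-binding Anxa2, also in the injury list, was at 185, 104 and 93.8 CPM in control and at 39.1, 62.6 and 63.0 CPM in treated mice (-1.21, adjusted p = 0.0357 from edgeR).

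Collagens and other matrix genes were lower with C16. Of 23 collagen genes 7 fell and 0 rose (median -1.21, and -0.63 with 0 calls without control Tg26 replicate 1). Of 43 matrix glycoproteins and matrix enzymes 16 fell and 0 rose (median -1.18, and -0.76 with 0 calls without that mouse). Col1a2, a chain of fibrillar collagen I, was at 612, 197 and 140 CPM in control and at 68.0, 76.7 and 107 CPM in C16-treated Tg26 mice. Control Tg26 replicate 1 was 3 times or more the next mouse, and the log2 fold change was -1.91 (SE 0.44, adjusted p = 0.0410 from edgeR). Col12a1, which coats collagen fibrils, followed the same pattern, with 152, 37.4 and 24.7 CPM in control and 9.55, 13.2 and 21.1 CPM in treated mice (-2.29, adjusted p = 0.0477 from edgeR). WT mice had 3.17 to 3.80 CPM, below every treated mouse.

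Collagen VI chains were lower by similar amounts, Col6a1 by -1.64 and Col6a2 by -1.73, and Col18a1 of basement membranes by -0.84. Among enzymes and their inhibitors, Timp2, an inhibitor of metalloproteinases, was at 117, 94.4 and 89.1 CPM in control and at 36.2, 42.2 and 53.1 CPM in treated Tg26 mice (-1.19, SE 0.17, adjusted p = 0.0278 from edgeR). The control mice were close together, and the WT mice were at 26.2 to 35.9 CPM. Thbs1, thrombospondin 1, an activator of TGF-beta, was at 108, 59.1 and 46.2 CPM against 23.3, 25.5 and 28.2 CPM (-1.47, adjusted p = 0.0311 from edgeR). With C16 in WT mice its log2 fold change was 0.64 (unadjusted p = 0.036), and its interaction term was -2.11 (unadjusted p = 0.00012, adjusted p = 0.218 from edgeR). The small proteoglycan Dcn changed by -0.74.

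In TGF-beta, PDGF and hedgehog signaling 7 of 28 measured genes fell and 0 rose (median -0.55, and -0.37 with 0 calls without control Tg26 replicate 1). Among ligands, Tgfb2 was at 14.9, 5.81 and 5.63 CPM in control and at 2.64, 2.52 and 3.04 CPM in treated Tg26 mice (-1.68, adjusted p = 0.0410 from edgeR), and Tgfb3 changed by -1.60. For Tgfb2 the treated mice were alike and stood above the WT mice, at 1.06 to 1.83 CPM. The hedgehog ligand Ihh, made by tubule cells, was at 17.6, 10.0 and 17.3 CPM in control and at 7.93, 7.49 and 9.15 CPM in treated mice (-0.87, adjusted p = 0.0398 from edgeR). Among receptors, Pdgfrb of pericytes was at 90.8, 58.6 and 57.2 CPM against 30.4, 28.3 and 41.4 CPM (-1.05, adjusted p = 0.0356 from edgeR). Among targets, Ccn2, also called CTGF, was at 234, 229 and 203 CPM against 92.2, 87.4 and 142 CPM (-1.05, adjusted p = 0.0302 from edgeR).

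Markers of fibroblasts and pericytes moved with these matrix genes. Of 21 measured, 7 fell and 0 rose (median -1.05, and -0.83 with 0 calls without control Tg26 replicate 1), among them Tagln (-1.46), Rgs5 (-0.98) and Dcn. Their summed level was 798 to 2311 CPM in control Tg26 mice, 428 to 690 CPM in C16-treated Tg26 mice and 444 to 613 CPM in WT mice. Several of these markers are themselves in the collagen, matrix and signaling lists. In bulk RNA fewer cells of a type and less RNA per cell cannot be told apart, and the part of cell numbers in the matrix result was not tested.

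Markers of macrophages and monocytes were lower with C16 but stayed above those of WT mice. Of 24 measured, 5 fell and 0 rose (median -1.20, and -0.82 with 0 calls without control Tg26 replicate 1). Their summed level was 858 to 1387 CPM in control Tg26 mice, 337 to 673 CPM in C16-treated Tg26 mice and 176 to 184 CPM in WT mice. Cd68, a lysosomal protein of macrophages, was at 27.8, 18.7 and 20.9 CPM in control and at 6.67, 8.86 and 12.9 CPM in treated mice (-1.25, SE 0.24, adjusted p = 0.0356 from edgeR). Treated mice were above the WT mice at 1.59 to 2.41 CPM. Trem2, a lipid receptor of macrophages in damaged tissue, was at 10.9, 8.63 and 6.81 CPM against 2.52, 3.52 and 4.33 CPM (-1.34, adjusted p = 0.0410 from edgeR), with WT mice at 0.0963 to 0.338 CPM. The haemoglobin scavenger receptor Cd163 of resident macrophages was at 1.98, 1.07 and 1.14 CPM in control and at 0.407, 0.248 and 0.444 CPM in treated mice, near the WT mice (0.366 to 0.675 CPM). Its log2 fold change was -1.91 (adjusted p = 0.0409 from edgeR).

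Genes of lysosomes and phagocytosis gave 6 lower and 0 higher calls among 27 (median -0.55, and -0.24 with 0 calls without control Tg26 replicate 1). Apoe, a lipid carrier of macrophages, was at 711, 479 and 437 CPM in control and at 160, 229 and 265 CPM in treated Tg26 mice (-1.31, SE 0.20, adjusted p = 0.0278 from edgeR). WT mice were at 74.6 to 90.2 CPM, below every treated mouse. The receptor Axl, which binds dying cells, changed by -1.13 and the collagen-degrading cathepsin Ctsk by -1.38. The 6 genes called were macrophage genes in part, Cd68, Trem2 and Tyrobp being in the marker list as well.

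Among complement genes 8 of 23 fell and 0 rose (median -1.14, and -0.72 with 0 calls without control Tg26 replicate 1). C1s1, a protease of the classical pathway, was at 37.4, 37.3 and 31.7 CPM in control and at 16.7, 16.4 and 22.8 CPM in treated Tg26 mice (-0.93, SE 0.14, adjusted p = 0.0278 from edgeR). C7, a terminal component, was at 18.1, 25.2 and 17.0 CPM against 4.27, 3.35 and 9.07 CPM (-1.85, adjusted p = 0.0373 from edgeR). Serping1, which inhibits the proteases of the classical pathway, changed by -1.14.

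Of 30 chemokines and their receptors 1 fell and 0 rose, near the share over all genes (median -0.73, and -0.31 with 0 calls without control Tg26 replicate 1). This was Ccl6, a myeloid chemokine, at 33.2, 15.7 and 19.0 CPM in control and at 3.33, 8.15 and 10.96 CPM in C16-treated Tg26 mice (-1.59, adjusted p = 0.0494 from edgeR). Ccl2, which draws monocytes, was at 11.3, 8.73 and 4.79 CPM against 1.83, 2.65 and 4.26 CPM and was not called (-1.50, adjusted p = 0.0617), and WT mice had 0.0963 CPM at most. The B cell chemokine Cxcl13 was at -2.04 (adjusted p = 0.0854) and the receptor Cx3cr1 at -1.09 (adjusted p = 0.0701). Of 13 MHC class II genes and 20 MHC class I genes 0 were called by edgeR, with 8 and 7 at an unadjusted p under 0.05 and 2 and 1 called by DESeq2. Their medians were -0.68 and -0.37, against -0.30 and -0.07 without control Tg26 replicate 1.

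Lymphocyte markers gave no such pattern. Of 20 markers of T and NK cells 0 were called by edgeR and 1 had an unadjusted p under 0.05, DESeq2 calling 1 higher, and the median was 0.19 (0.46 without control Tg26 replicate 1). Their summed level was 27.6 to 52.3 CPM in control and 26.6 to 51.8 CPM in C16-treated Tg26 mice, so the groups overlapped, and both were above WT mice at 13.7 to 21.2 CPM. Trac, the constant region of the T cell receptor alpha chain, was at 2.73, 2.44 and 1.84 CPM in control and at 6.26, 3.60 and 5.04 CPM in treated Tg26 mice (1.08, adjusted p = 0.0641 from edgeR). Of 17 markers of B and plasma cells only Sdc1 fell (-1.09), a proteoglycan that epithelia also express, and the median was 0.23 (0.65 with 0 calls without control Tg26 replicate 1). Neutrophil markers gave 0 calls among 7 by edgeR and by DESeq2, and 0 at an unadjusted p under 0.05, and of 11 dendritic cell markers Clec10a fell (-1.04), a lectin that macrophages share. The median of the dendritic cell markers was -0.34 (-0.24 with 0 calls without control Tg26 replicate 1).

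**Figure D4:**
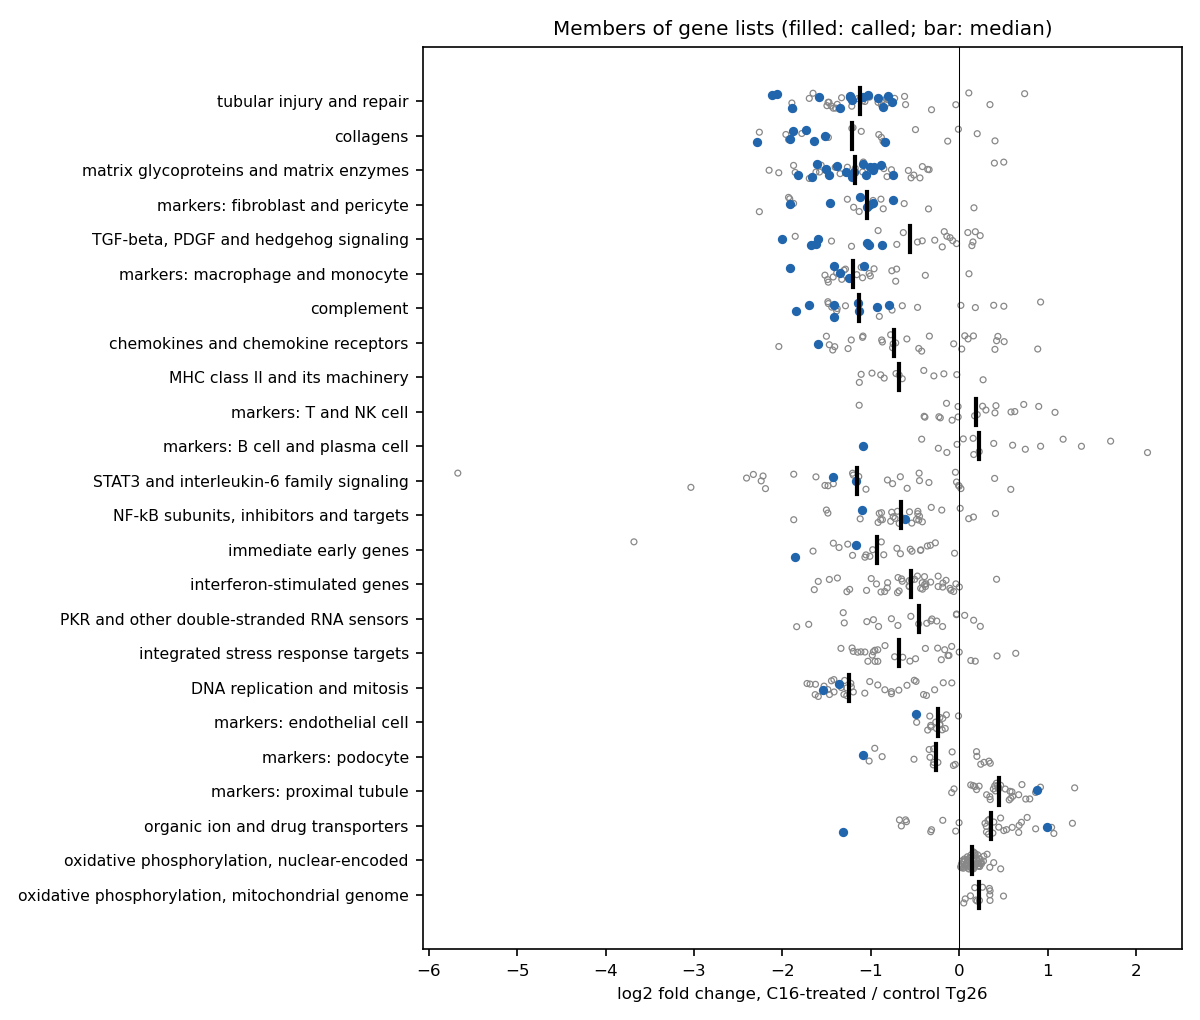
Each row is 1 gene list and each circle 1 measured member, placed on the x axis by its log2 fold change of C16-treated over control Tg26 mice; filled blue circles were called by edgeR, in either direction, and black bars are medians. Injury, collagen, matrix, macrophage and complement lists have medians between -1.21 and -1.12, DNA replication and mitosis -1.25, and STAT3 signaling -1.15. T and NK cell markers are at 0.19 and proximal tubule markers at 0.45. Without control Tg26 replicate 1 these medians are -0.82 to -0.63, -0.67, -0.64, 0.46 and 0.31.

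Transcripts of the pathway that C16 targets were measured at several steps. Phosphorylation of PKR or eIF2 alpha is not seen in RNA. The study reported less phosphorylated PKR in C16-treated Tg26 kidneys by staining. Eif2ak2, which encodes PKR itself, was at 20.6, 14.9 and 18.0 CPM in control and at 13.9, 17.5 and 15.6 CPM in C16-treated Tg26 mice. These ranges overlapped with each other and with WT mice at 14.7 to 18.5 CPM (-0.19, adjusted p = 0.452 from edgeR). Of 21 double-stranded RNA sensors 0 were called by edgeR, 9 had an unadjusted p under 0.05 and 4 were called by DESeq2 (median -0.46, and -0.24 without control Tg26 replicate 1). Oas2, which senses double-stranded RNA, was at 7.69, 5.05 and 1.66 CPM against 0.894, 1.41 and 2.11 CPM (-1.70, adjusted p = 0.0790 from edgeR).

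Targets of the integrated stress response, which follows eIF2 alpha phosphorylation, gave 0 calls among 30 by edgeR, with 17 at an unadjusted p under 0.05, and 2 higher and 8 lower calls by DESeq2. Their median was -0.68, against -0.20 without control Tg26 replicate 1. Atf4, the transcription factor at its centre, was at 83.2, 72.7 and 69.6 CPM in control and at 75.6, 70.0 and 67.1 CPM in treated mice (-0.09, adjusted p = 0.643 from edgeR). The amino acid transporter Slc7a1 was at -1.11 (adjusted p = 0.0530) and Shmt2 of mitochondrial one-carbon metabolism at 0.64 (adjusted p = 0.0662), the opposite direction. Of 43 interferon-stimulated genes 0 were called by edgeR, 16 had an unadjusted p under 0.05 and DESeq2 called 4 lower. Their median moved from -0.54 to -0.16 without control Tg26 replicate 1. Ifit2 was at -0.84 (adjusted p = 0.0608), and Ifi204 at -1.64 (adjusted p = 0.0712).

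In the list of STAT3 and interleukin-6 family signaling 2 of 32 genes fell and 0 rose by edgeR, and DESeq2 called 17 lower and 1 higher (median -1.15, and -0.64 with 0 calls without control Tg26 replicate 1). The oncostatin M receptor Osmr was at 38.5, 31.5 and 27.8 CPM in control and at 10.8, 12.99 and 19.6 CPM in C16-treated Tg26 mice (-1.17, SE 0.23, adjusted p = 0.0356 from edgeR), with WT mice at 7.14 to 11.03 CPM. The acute phase protein Lbp, which carries lipopolysaccharide, changed by -1.43 (adjusted p = 0.0468 from edgeR). Stat3 was at 185, 132 and 163 CPM in control and at 81.0, 98.4 and 105 CPM in treated Tg26 mice. The groups did not overlap, yet Stat3 was not called (-0.75, SE 0.26, adjusted p = 0.101 from edgeR). Saa1, another acute phase gene, was at 5.79, 2.96 and 1.36 CPM against 0.203, 0.538 and 0.481 CPM (-3.03, adjusted p = 0.0555), and Cp, ceruloplasmin, was at -1.48 (adjusted p = 0.0519).

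Among NF-kB subunits, inhibitors and targets 2 of 32 fell and 0 rose, DESeq2 calling 7 lower (median -0.66, and -0.31 with 0 calls without control Tg26 replicate 1). Csf1, the growth factor of macrophages, was at 42.8, 21.97 and 18.3 CPM in control and at 11.7, 12.99 and 14.0 CPM in treated Tg26 mice (-1.10, adjusted p = 0.0467 from edgeR). Tnfaip2 changed by -0.61 (adjusted p = 0.0447 from edgeR), whereas the inhibitor Nfkbiz was at -1.12 (adjusted p = 0.0511) and the adhesion molecule Icam1 at -0.88 (adjusted p = 0.0600). Immediate early genes gave 2 lower and 0 higher calls among 24, and 11 lower calls by DESeq2 (median -0.93, and -0.75 with 0 calls without control Tg26 replicate 1). Fos, an AP-1 subunit, was at 7.93, 15.6 and 7.10 CPM in control and at 3.17, 2.52 and 2.74 CPM in treated mice (-1.86, adjusted p = 0.0378 from edgeR). The treated mice were within or below the WT range of 2.66 to 6.96 CPM. Btg2, an antiproliferative gene and the 1 call among 21 genes of the p53 pathway (median -0.39, and -0.25 with 0 calls without control Tg26 replicate 1), changed by -1.16, and Maff was at -1.21 (adjusted p = 0.0517).

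Genes of DNA replication and mitosis gave 2 lower and 0 higher calls among 36, with 29 at an unadjusted p under 0.05 and 15 called lower by DESeq2 (median -1.25, and -0.67 with 0 calls without control Tg26 replicate 1). Foxm1, a transcription factor of the G2 and M phases, was at 9.70, 4.99 and 4.49 CPM in control and at 2.28, 1.90 and 2.41 CPM in C16-treated Tg26 mice (-1.54, adjusted p = 0.0373 from edgeR). The treated mice lay within the WT range of 1.79 to 2.89 CPM. Ccnb2, cyclin B2, changed by -1.36 (adjusted p = 0.0494 from edgeR), while Mcm5 of the replicative helicase was at 28.0, 9.87 and 8.80 CPM against 4.51, 5.84 and 4.78 CPM (-1.63, adjusted p = 0.0568) and the spindle motor Kif11 at -1.42 (adjusted p = 0.0576).

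Of the markers of the proximal tubule, 1 was called higher in C16-treated Tg26 mice by edgeR and 10 were by DESeq2. The log2 fold change was above 0 for 30 of 32 markers, and its median was 0.45 (0.31 with 0 calls without control Tg26 replicate 1). Lrp2 encodes megalin, the endocytic receptor of the proximal brush border. It was at 835, 1557 and 1256 CPM in control and at 2456, 2265 and 2012 CPM in treated Tg26 mice, a log2 fold change of 0.88 (SE 0.19, adjusted p = 0.0378 from edgeR). WT mice were at 2018 to 2344 CPM, inside the range of the treated mice. Slc22a8, the organic anion transporter OAT3, was at 319, 358 and 311 CPM against 546, 643 and 386 CPM and was not called (0.67, adjusted p = 0.0655).

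Calls in other lists of transporters and enzymes were few and went in both directions, against 2.66% lower and 0.758% higher over all genes tested. Slco1a6, an organic anion transporter, was at 293, 592 and 491 CPM in control and at 960, 978 and 793 CPM in C16-treated Tg26 mice (0.99, adjusted p = 0.0415 from edgeR), while Abcc3, a basolateral export pump of the same list, changed by -1.31. In that list of 32 transporters 1 rose and 1 fell (median 0.36, and 0.29 with 0 calls without control Tg26 replicate 1). Slc38a3, the glutamine transporter SNAT3 that acidosis induces, was at 136, 69.2 and 158 CPM in control and at 42.6, 32.1 and 36.5 CPM in treated Tg26 mice (-1.71, SE 0.27, adjusted p = 0.0278 from edgeR). All 3 treated mice were below the WT mice at 74.9 to 109 CPM, and with C16 in WT mice the log2 fold change was -0.63 (unadjusted p = 0.034 from edgeR). Slc36a1, a lysosomal amino acid transporter, rose by 0.55, so 1 of 31 amino acid and glucose transporters rose and 1 fell (median 0.03, and 0.03 with 0 calls without that mouse).

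Among 28 cytochrome P450 genes 2 rose and 1 fell (median 0.21, and 0.15 with 0 calls without control Tg26 replicate 1). Cyp2j5, an epoxygenase of arachidonic acid, was at 717, 1193 and 1137 CPM in control and at 1817, 1637 and 1671 CPM in treated Tg26 mice (0.75, adjusted p = 0.0400 from edgeR), within or near the WT range of 1610 to 1800 CPM. Cyp4a12a, which makes 20-HETE and is induced by androgens, was at 179, 308 and 306 CPM against 586, 490 and 505 CPM (0.997, adjusted p = 0.0494 from edgeR). It moved opposite to its relative Cyp4a14, and both are in the list of fatty acid oxidation and PPAR-alpha targets, where 1 of 37 rose and 1 fell (median 0.02, and -0.15 with 0 calls without that mouse). Of 30 genes of sterol and fatty acid synthesis Pmvk fell (-0.61), of 28 NRF2 target and glutathione genes Pgd fell (-0.66), and of 31 glycolysis and hypoxia genes Car9 rose and the collagen hydroxylase P4ha2 fell (-0.60). Without control Tg26 replicate 1 these 3 lists had 0 calls, and their medians of 0.02, -0.12 and -0.07 were 0.07, -0.03 and -0.02.

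Subunits of oxidative phosphorylation had small fold changes. Of 55 nuclear-encoded subunits 0 were called by edgeR and 9 had an unadjusted p under 0.05, DESeq2 calling 1, and their median was 0.15 (0.08 without control Tg26 replicate 1). The log2 fold change was above 0 for all 55, whereas with C16 in WT mice 52 of the 55 were below 0 (median -0.12). Of all 16094 genes tested, 7909 were above 0 in Tg26 mice and 8187 below 0 with C16 in WT mice. The summed level of the 55 was 12702 to 16718 CPM in control and 15900 to 18441 CPM in C16-treated Tg26 mice, so the groups overlapped. Of the 13 encoded by the mitochondrial genome 0 were called by either tool and 3 had an unadjusted p under 0.05 (median 0.23, and 0.11 without control Tg26 replicate 1). All 13 were above 0 in Tg26 mice and below 0 with C16 in WT mice, and the difference between genotypes was not tested for these lists. The summed level of the 13 was 52776 to 72565 CPM in control and 70667 to 80648 CPM in C16-treated Tg26 mice, so the groups overlapped, and 96462 to 105314 CPM in WT mice.

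Transcription factors that the study named as upstream regulators were measured by their own transcripts. Of 8 such genes 0 were called by edgeR, 2 had an unadjusted p under 0.05 and DESeq2 called 2 lower. The study scored the activity of these factors from the genes they regulate, and it also measured phosphorylated STAT3 protein. Transcript levels of the factors are a different measure and not a check of either. Gli1, the effector and target of hedgehog signaling, was at 2.67, 2.30 and 1.62 CPM in control and at 0.772, 0.828 and 0.815 CPM in treated Tg26 mice, just outside the threshold (-1.44, adjusted p = 0.0503 from edgeR). Beside Stat3 and Gli1 the log2 fold changes were 0.12 for Foxo1, -0.03 for Epas1, 0.11 for Srebf1, -0.16 for Creb1, -0.09 for Atf4 and 0.14 for Smad2, with adjusted p of 0.267 or more. The signs for Foxo1, Epas1 and Srebf1 depended on single mice. Of 17 measured genes that the study named on other grounds, some of them from these libraries, 3 fell (Pdgfrb, Ccn2 and Tgfb2) and 0 rose (median -0.75, and -0.38 with 0 calls without control Tg26 replicate 1). Spp1, osteopontin, was at 3366, 740 and 936 CPM in control and at 316, 571 and 669 CPM in treated Tg26 mice, a difference that was not called (-1.70, adjusted p = 0.0670 from edgeR). Pdgfd was at -0.03, the integrin Itga4 at -0.27 and Rbfox1, with under 1 CPM in every Tg26 mouse, at -0.98 (adjusted p = 0.327). The study reported Pdgfd in nuclei of injured proximal tubule, and Itga4, Rbfox1, Spp1, Ccn2 and Tgfb2 in podocyte nuclei. Bulk cortex does not resolve these cells, so the values here are not a check of those results.

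Podocyte genes showed 1 call among 20, Kirrel, an adhesion gene of the NEPH family, which was at 21.7, 14.4 and 18.3 CPM in control and at 7.40, 8.86 and 9.30 CPM in treated Tg26 mice (-1.09, adjusted p = 0.0331 from edgeR). Nphs1, which encodes nephrin of the slit diaphragm, was at 9.20, 24.9 and 24.9 CPM against 23.5, 26.4 and 21.7 CPM (0.28, adjusted p = 0.609), and the 2 groups overlapped. Synpo was at -0.29 and Cdkn1c at 0.20, neither called, and the median of the list was -0.26 (-0.17 with 0 calls without control Tg26 replicate 1). Of 16 endothelial markers Eng, a TGF-beta co-receptor, fell (-0.49, adjusted p = 0.0482 from edgeR) with a median of -0.24 (-0.18 with 0 calls without that mouse). Summed endothelial markers were at 808 to 887 CPM in control and at 667 to 733 CPM in treated Tg26 mice.

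Markers of the thick ascending limb, the distal convoluted tubule and the principal and intercalated cells of the collecting duct gave 0 calls by edgeR among 11, 10, 11 and 11 genes, with 3, 1, 3 and 2 at an unadjusted p under 0.05 and 2, 1, 2 and 1 called by DESeq2. Red cell markers gave 0 calls by either tool among 6, with 0 at an unadjusted p under 0.05, and summed levels of 45.0 to 209 CPM in control and 52.3 to 454 CPM in treated Tg26 mice. Cldn4, a claudin of the thin limb and collecting duct, was the 1 call among 8 thin limb and papilla markers (-1.28, and 0 calls without control Tg26 replicate 1), at 82.5, 40.7 and 42.0 CPM in control and at 12.8, 27.9 and 27.2 CPM in treated Tg26 mice. The coagulation and fibrinolysis list gave 4 lower and 0 higher calls among 24 (median -0.63, and -0.50 with 0 calls without control Tg26 replicate 1), of which Thbd, thrombomodulin (-0.55), and the protease inhibitor Serpine2 (-1.10) were not in the lists above. Of 19 circadian clock genes 0 were called by edgeR, with 3 at an unadjusted p under 0.05 and 2 called higher by DESeq2. Tef, a clock output gene, was at 274, 390 and 307 CPM in control and at 487, 506 and 404 CPM in treated Tg26 mice (0.53, adjusted p = 0.0545 from edgeR). A clock score, the mean log2 level of Arntl, Npas2, Nfil3 and Clock less that of Dbp, Per3, Ciart, Nr1d1, Tef and Hlf, was -2.88, -2.99 and -0.16 in control and -4.08, -3.82 and -2.79 in treated Tg26 mice. These overlapped by 1 mouse, and with the score as a covariate, added after the data were seen, 0 genes were called by edgeR and 3875 had an unadjusted p under 0.05. The fold changes hardly moved, the median of the 428 lower genes being -1.06 and that of the 122 higher genes 0.57.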

How the data were processed

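Values for outer kidney cortex of 12 mice were deposited by the authors as RSEM expected counts per gene, already whole numbers and not normalized. Per the labels and the study's methods, reads were trimmed with Cutadapt (1.18), mapped to mm10 with STAR (2.7.0f) and assigned to Ensembl 96 genes with RSEM (1.3.1); RSEM's strand setting is not given in the sources used here. Of 55450 genes, 16094 passed edgeR's filterByExpr (about 10 counts in at least 3 libraries, total of 15). Counts were TMM-scaled and tested with edgeR's quasi-likelihood test (edgeR 4.0.16, R 4.3.3) over the 4 groups without a covariate. Adjusted p are Benjamini-Hochberg values over all genes tested. In groups of 3 single mice, p-values weigh a group difference against the spread between mice, which was estimated over all 12 libraries. No pair of libraries was a duplicate.

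Named genes are the 15 most raised and 15 most lowered among called genes whose CPM averaged 1 or more and whose groups did not overlap, leaving out predicted genes, receptor segments and sex-linked genes, the 4 members of each of 49 lists with the smallest adjusted p, any called against its list, and genes named by the study. Some genes under this rule are not reported here. Lists and members were chosen with earlier results of these data known. Alternatives were DESeq2 (1.42.0), limma-voom with quality weights (limma 3.58.1), other scalings and filters, a replicate block, covariates of Y-linked and clock genes, the 2 groups alone, and leaving out each library. On simulated data for this comparison (50 of 16094 genes changed at each fold) edgeR recovered 16% of genes at 1.5-fold, 58% at 2-fold, 84% at 4-fold and 98% at 8-fold, with 4 false calls among 15894. DESeq2 recovered 32%, 78%, 88% and 98%, with 30 false calls. Apart from the changed genes, the simulated libraries varied independently around 1 mean per gene. None differed across many genes as control Tg26 replicate 1 did, so these rates need not hold for the mice compared. The floor for a gene without counts, 3 counts per library, covers counting error only.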

Additional observations from a re-analysis of the deposited data

How the results depend on the processing

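For C16-treated against control Tg26 mice, the main counts were 122 higher and 428 lower. DESeq2 gave 724 and 1235 (540 of the 550 shared), library sizes alone 81 and 739 (500 shared), no filter 292 and 812 (524 shared) and a covariate of Y-linked genes 14 and 80 (90 shared). The replicate block, the fit of the 2 groups alone and the clock covariate, chosen after the data were seen, each gave 0 and 0, while the median log2 fold change of the 428 lower genes was -1.04, -1.05 and -1.06 and that of the 122 higher genes 0.65, 0.64 and 0.57 (-1.05 and 0.64 in the fit reported). RLE factors, TMM without mitochondrial genes, a stricter filter and limma-voom stayed within 1.5 times. Leaving out 1 Tg26 mouse at a time gave 0 to 642 higher and 0 to 827 lower genes. The cause of these differences was not tested, including the part of fewer samples in the smaller fits. The numbers of the replicates did not pair the mice: same-numbered control and C16-treated Tg26 mice correlated at -0.11, -0.13 and 0.07. In the replicate block 4032 genes still had an unadjusted p under 0.05.

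The interaction had 158 calls with DESeq2, 2 with limma-voom and 6 without a filter. C16 in WT mice had 34 calls with DESeq2, 43 with limma-voom, 2 without a filter and 1 in the fit of its 2 groups alone. Leaving out 1 mouse gave 0 calls in both.

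Of 108 named genes that were called, 0 reversed under any alternative, but their groups do not overlap, which fixes the sign when a mouse is left out. Of 41 named genes that were not called, 7 reversed. Leaving out 1 mouse gave log2 fold changes of -0.030 to 0.43 for Cdkn1c, -0.00746 to 0.29 for Foxo1 and -0.061 to 0.49 for Nphs1, each negative without control Tg26 replicate 1. Itga4 ranged from -0.59 to 0.028, being positive without control or treated replicate 1 (0.024 and 0.028), and Pdgfd from -0.11 to 0.047, being positive without control replicate 1 or treated replicate 2 (0.042 and 0.047). Epas1 ranged from -0.13 to 0.065, being positive without control replicates 2 or 3 or treated replicate 3, and Srebf1 from -0.23 to 0.39, being negative without control replicate 3 or treated replicate 1. With the Y-linked covariate Pdgfd was 0.062, with library sizes alone Srebf1 was -0.060, and with the clock covariate Epas1 was 0.10 and Srebf1 -0.32.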

Other observations

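Further called genes were picked after their values were seen. No list of related genes was counted or tested, so each stands with its own value only. Traf3ip1, which takes part in transport along the cilium, was at 21.1, 31.1 and 27.4 CPM in control and at 45.0, 40.1 and 33.9 CPM in treated Tg26 mice (0.58 on the log2 scale, adjusted p = 0.0471 from edgeR). Tulp3, which brings receptors into the cilium, was higher by 0.54, Bbs7 by 0.47, Wdpcp by 0.46 and Crocc of the ciliary rootlet by 0.63. Slc9a3, the sodium-proton exchanger NHE3 of the proximal tubule, was at 57.4, 108 and 77.1 CPM in control and at 171, 163 and 143 CPM in treated Tg26 mice. The treated mice were above the WT mice, at 104 to 129 CPM, and the log2 fold change was 0.97 (adjusted p = 0.0331 from edgeR).

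Flna, the actin crosslinker filamin A, was at 309, 166 and 133 CPM in control and at 79.6, 90.4 and 97.8 CPM in treated Tg26 mice (-1.18, adjusted p = 0.0357 from edgeR), Actn1 changed by -1.16, Vcl by -0.66 and Myl9 by -0.87. The chaperone genes Hspb1, Hspb7 and Hspb8 changed by -1.46, -1.66 and -1.91. The Notch ligand Jag1 changed by -0.68, the receptor Notch3 by -0.90 and the target Heyl by -1.03. The claudin Cldn3 changed by -1.54 and Cldn7 by -0.94. Agt, angiotensinogen, was at 84.4, 47.5 and 53.4 CPM in control and at 23.6, 18.4 and 27.1 CPM in treated Tg26 mice (-1.42, adjusted p = 0.0356 from edgeR), and the endothelin receptor Ednra changed by -1.06.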
